A study of Mus musculus with 104 samples.

Results

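This report follows 49 cell cycle and DNA replication genes of the 24940 genes listed for mouse Kupffer cells, which are liver macrophages, and for cells that can become or resemble them. The members were taken as a fixed list of symbols, all of which are listed in each of the 8 deposited expression tables. They comprise 21 genes of mitosis and its checkpoint, 17 of DNA replication and nucleotide supply, 5 S-phase cyclins and E2F factors (Ccna2, Ccne1, Ccne2, E2f1, E2f2), 3 D-type cyclins (Ccnd1, Ccnd2, Ccnd3) and 3 inhibitors of cyclin-dependent kinases, or CDKs (Cdkn1a, Cdkn1b, Cdkn2c).

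As background, a resting cell enters the cycle when D-type cyclins activate their kinases and release E2F transcription factors from the retinoblastoma proteins. E2F factors switch on the genes that load the MCM helicase, copy DNA and make nucleotides. A later wave of genes, controlled through CHR elements by the MuvB complex, then builds the spindle and divides the chromosomes. Resident tissue macrophages renew themselves at a slow rate by division, whereas monocytes come from dividing precursors in the marrow.

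The series has 104 RNA-seq libraries in 47 groups of 2 to 4. The refilling experiment compared blood monocytes of C57BL/6J mice (n = 4) with repopulating liver macrophages (RLMs) of Clec4f-cre/Rosa26iDTR mice. In that strain the Clec4f promoter, active in Kupffer cells, drives the Cre that switches on the diphtheria toxin receptor. RLMs were taken 12 h (n = 2), 24 h (n = 3), 48 h (n = 2), 72 h (n = 2), 168 h (n = 3) and 336 h (n = 3) after diphtheria toxin. Kupffer cells of the same strain were taken 72 h after PBS (n = 3).
A further set held TIM4+ Kupffer cells of Nr1h3 flox/flox controls with TIM4+ and TIM4- cells of Nr1h3 flox/flox Clec4f-cre +/- mice (n = 2 each), and wild-type and Nr1h3 knockout bone marrow-derived macrophages (BMDMs) cultured for 7 days (n = 2 each). Cells of C57BL/6J liver sorted by low, intermediate or high STAB2, which the file header calls endothelium, had 2 libraries per gate. Smad4 flox/flox TIM4+ Kupffer cells (n = 2) were set beside TIM4+ (n = 3) and TIM4- (n = 2) cells with Clec4f-cre +/- as well.
BMDMs of Smad4 flox/flox mice, control and knockout, were cultured for 4 days without or with TGF-beta, DLL4, DLL4 plus DAPT, or DLL4 plus TGF-beta for 24 h (n = 2 each). The knockout BMDMs are labelled Clec4f-cre, whereas the series design names LysM-cre, the driver active in myeloid cells. C57BL/6J BMDMs received DLL4, DMHCA, DLL4 plus TGF-beta, or all 3 agents for 24 h, and the same agents without the DMHCA-only arm for 72 h, each beside untreated cells (n = 2 each). RLMs at 24 h came from mice given LY411575 (n = 3) or its control (n = 2), and antibodies to DLL1 and DLL4 (n = 4) or their control (n = 2). The deposited column names mark all of these libraries, controls included, as fasted. These RLMs are labelled C57BL/6J, whereas the design names Clec4f-Cre/DTR mice. The LY411575 pair is labelled female and the antibody pair male, so agent and sex cannot be told apart between the pairs. Bone marrow monocytes of C57BL/6J mice were cultured for 2 days with no agent, desmosterol, DLL4, DLL4 plus TGF-beta, or DLL4 plus TGF-beta plus desmosterol (n = 2 each). Their deposited column names read male and BMDM, whereas the titles read BMmono, and the titles were followed.

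Values are normalized transcript levels (TPM), and differences are on the log2(TPM + 1) scale, which understates changes of low genes. Called genes are those with a difference of at least 2-fold and an adjusted p (limma, Benjamini-Hochberg over all genes tested in the table) below 0.05. A gene was tested where 2 or more libraries reached 4 TPM. That left 48 members in the refilling table, 46 in the Nr1h3 table, 37 in the STAB2 table, 33 in the Smad4 Kupffer cell table, 49 in each BMDM agent table, 32 in the LY411575 and antibody table and 48 in the marrow monocyte table. A member that passes only where it is high had to differ, so the counts below describe the tested members and not all 49. Libraries held 7830287 to 27777000 recovered reads. Titles tell replicates apart by numbers or letters, but the labels do not say whether each stands for an animal or a culture, and the spread behind each p-value may therefore be technical. In bulk samples, fewer cells of a type and less RNA per cell cannot be told apart.

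The promoters of replication and mitotic members differ in the motif letters they hold. RefSeq promoters on GRCm38.p6, spanning 250 bases before to 50 bases after each start, were matched for 40 of the 49 members and gave 47 promoters. Letters of the CHR element (TTTGAA or TTCGAA, either strand) lay in 15 of 19 promoters of mitotic genes (78.9%), in 3 of 17 promoters of replication genes (17.6%), and in 19.2% of all 32851 promoters. Letters of the E2F site (TTTCCCGC, TTTCGCGC, TTTGCCGC or TTTGGCGC, either strand, overlaps counted) lay in 8 of 17 promoters of replication genes (47.1%), in 1 of 19 of mitotic genes (5.26%, that of Cdk1), and in 2.26% of all. CCAAT lay in 89.5% and 70.6% of the mitotic and replication promoters and in 37.4% of all. A match is a run of letters and no evidence of binding. Shown here are the 250 bases before the start of 3 mitotic genes with CHR letters in capitals, and of 2 MCM genes with E2F letters in capitals, because these genes carry the results that follow. Mki67 encodes the proliferation marker Ki-67, Top2a the topoisomerase that untangles chromosomes, Cdk1 the mitotic kinase, and Mcm5 and Mcm6 are subunits of the replicative helicase. Each is written 5′ to 3′ on the strand of its gene.
Mki67 (chr7:135716380-135716629, minus strand, CHR letters in capitals): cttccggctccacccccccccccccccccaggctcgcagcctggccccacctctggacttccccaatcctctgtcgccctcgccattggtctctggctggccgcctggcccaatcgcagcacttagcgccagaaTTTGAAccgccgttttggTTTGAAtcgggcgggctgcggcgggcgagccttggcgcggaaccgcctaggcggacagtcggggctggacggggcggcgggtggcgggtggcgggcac
Top2a (chr11:99024190-99024439, minus strand, CHR letters in capitals): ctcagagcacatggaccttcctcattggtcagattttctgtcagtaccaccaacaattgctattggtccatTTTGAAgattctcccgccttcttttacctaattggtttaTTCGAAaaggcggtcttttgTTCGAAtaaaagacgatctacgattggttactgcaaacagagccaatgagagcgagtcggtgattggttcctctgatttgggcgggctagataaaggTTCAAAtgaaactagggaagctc
Cdk1 (chr10:69352913-69353162, minus strand, CHR letters in capitals): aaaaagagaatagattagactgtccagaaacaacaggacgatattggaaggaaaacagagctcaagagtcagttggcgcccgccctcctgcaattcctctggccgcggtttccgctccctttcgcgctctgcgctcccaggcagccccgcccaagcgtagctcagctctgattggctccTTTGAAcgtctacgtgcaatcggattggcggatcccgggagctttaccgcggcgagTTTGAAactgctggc
Mcm5 (chr8:75109259-75109508, plus strand, E2F letters in capitals): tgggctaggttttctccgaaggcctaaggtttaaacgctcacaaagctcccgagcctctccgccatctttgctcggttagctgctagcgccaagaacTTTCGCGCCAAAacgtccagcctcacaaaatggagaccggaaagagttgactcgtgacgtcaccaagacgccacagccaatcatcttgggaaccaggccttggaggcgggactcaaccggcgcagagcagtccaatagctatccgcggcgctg
Mcm6 (chr1:128359706-128359955, minus strand, E2F letters in capitals): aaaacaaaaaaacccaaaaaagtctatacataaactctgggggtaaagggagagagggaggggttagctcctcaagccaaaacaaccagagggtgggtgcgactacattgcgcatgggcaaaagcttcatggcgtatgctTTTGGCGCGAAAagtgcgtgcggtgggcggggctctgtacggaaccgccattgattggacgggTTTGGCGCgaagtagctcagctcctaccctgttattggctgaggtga
The Mki67 stretch holds 2 CHR matches, that of Top2a 4 and that of Cdk1 2, with those nearest the start lying 98, 23 and 15 bases before it. In Mcm5 a pair of overlapping matches forms a single run, the second of them starting 149 bases before the start, and Mcm6 holds 3 matches.

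In refilling livers, monocyte-derived cells turned on both waves, highest at 48 to 72 h and lower again by 168 h. Summed over the 17 replication genes, the level in the 4 monocyte libraries was 92.0 to 105 TPM. It was 149 and 168 TPM at 12 h, 200 to 364 TPM at 24 h, 999 and 1174 TPM at 48 h and 684 and 910.0 TPM at 72 h. At 168 h it was 172 to 174 TPM, at 336 h 165 to 167 TPM, and in Kupffer cells 170.1, 194 and 237 TPM. The 48 h and 72 h libraries stood above all others, and the 12 h libraries already stood above all monocyte libraries.
The 21 mitotic genes summed to 38.9 to 52.4 TPM in monocytes and to 25.9 and 40.6 TPM at 12 h, so these groups overlapped. They reached 70.7 to 144 TPM at 24 h, 925 and 989.5 TPM at 48 h and 884 and 908 TPM at 72 h. The sums then lay at 91.2 to 155 TPM at 168 h, 84.1 to 167 TPM at 336 h and 86.4, 229 and 329 TPM in Kupffer cells.

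**Figure D1:**
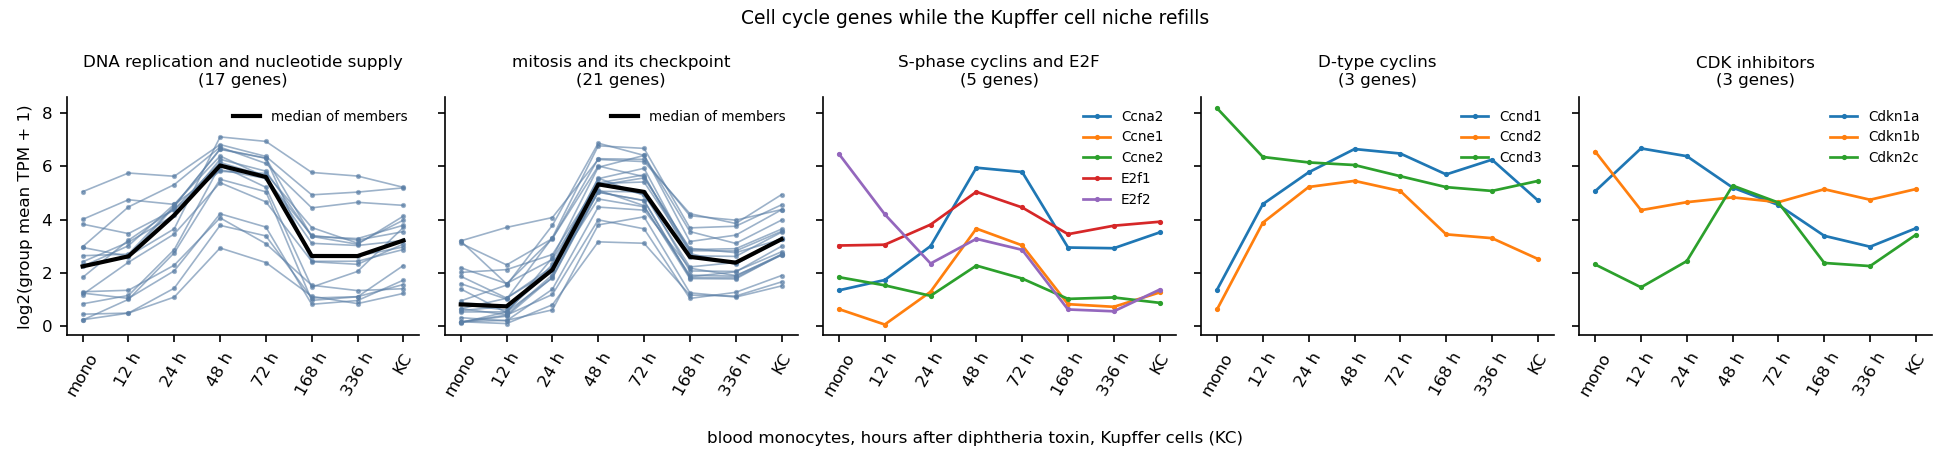
Log2 of the group mean TPM + 1 of every member (y axis) in blood monocytes, RLMs by hours after diphtheria toxin, and Kupffer cells (x axis, in order but not to scale of time), 1 panel per role. Each thin line is 1 gene and the bold lines in the replication and mitosis panels are the medians over members; both medians are highest at 48 h, while Ccnd3, E2f2 and Cdkn1b are highest in monocytes.

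The first changes went in both directions. Ccnd1 and Ccnd2 rose, while Ccnd3, the D-type cyclin with the highest level in monocytes, fell, as did E2f2. At 12 h, 6 of 48 tested members rose and 4 fell against monocytes, beside 12.5% and 12.7% of all 11373 genes tested. Those shares of all genes are close to the members' own, so the count at 12 h does not stand out. Ccnd1, a D-type cyclin that responds to growth signals, was at 0.864, 1.83, 2.04 and 1.64 TPM in monocytes and at 27.0 and 18.7 TPM at 12 h (log2 difference 3.21 ± 0.22 SE, limma adjusted p = 3.5e-09). Ccnd2 was at 0.247 to 1.22 TPM in monocytes and at 14.8 and 12.7 TPM at 12 h (3.28 ± 0.29 SE, limma adjusted p = 6.4e-08). Both groups were apart for both genes. Of the replication genes 3 of 17 rose, among them Mcm3, a further MCM helicase subunit (1.50 ± 0.18 SE, limma adjusted p = 1.6e-06), and of the mitotic genes none rose and 1, Aurkb, fell. Aurkb, a kinase of the chromosome passenger complex, fell by 1.64 on the log2 scale.
Cdkn1a, which encodes the CDK inhibitor p21, rose with Ccnd1 and Ccnd2. It was at 21.0 to 39.6 TPM in monocytes, 98.2 and 102 TPM at 12 h, 66.9 to 102 TPM at 24 h and 33.5 and 37.7 TPM at 48 h. The rise at 12 h was 1.65 ± 0.31 SE (limma adjusted p = 0.00017), and the 48 h values lay inside the monocyte range. E2f2, Ccnd3 and Cdkn1b were the members that monocytes held at high levels and lost. E2f2, an activator E2F, was at 70.5 to 109 TPM in monocytes, 24.7 and 10.0 TPM at 12 h, 3.48 to 4.56 TPM at 24 h, 8.45 and 8.96 TPM at 48 h and 0.502 to 0.647 TPM at 168 h. Ccnd3 was at 248 to 348 TPM in monocytes and at 63.9 to 72.7 TPM at 24 h, and Cdkn1b, which encodes the inhibitor p27, at 82.5 to 102 TPM in monocytes and at 22.9 and 15.9 TPM at 12 h. All 3 fell at 12 h, by 2.36, 1.92 and 2.21 on the log2 scale.

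**Figure D2:**
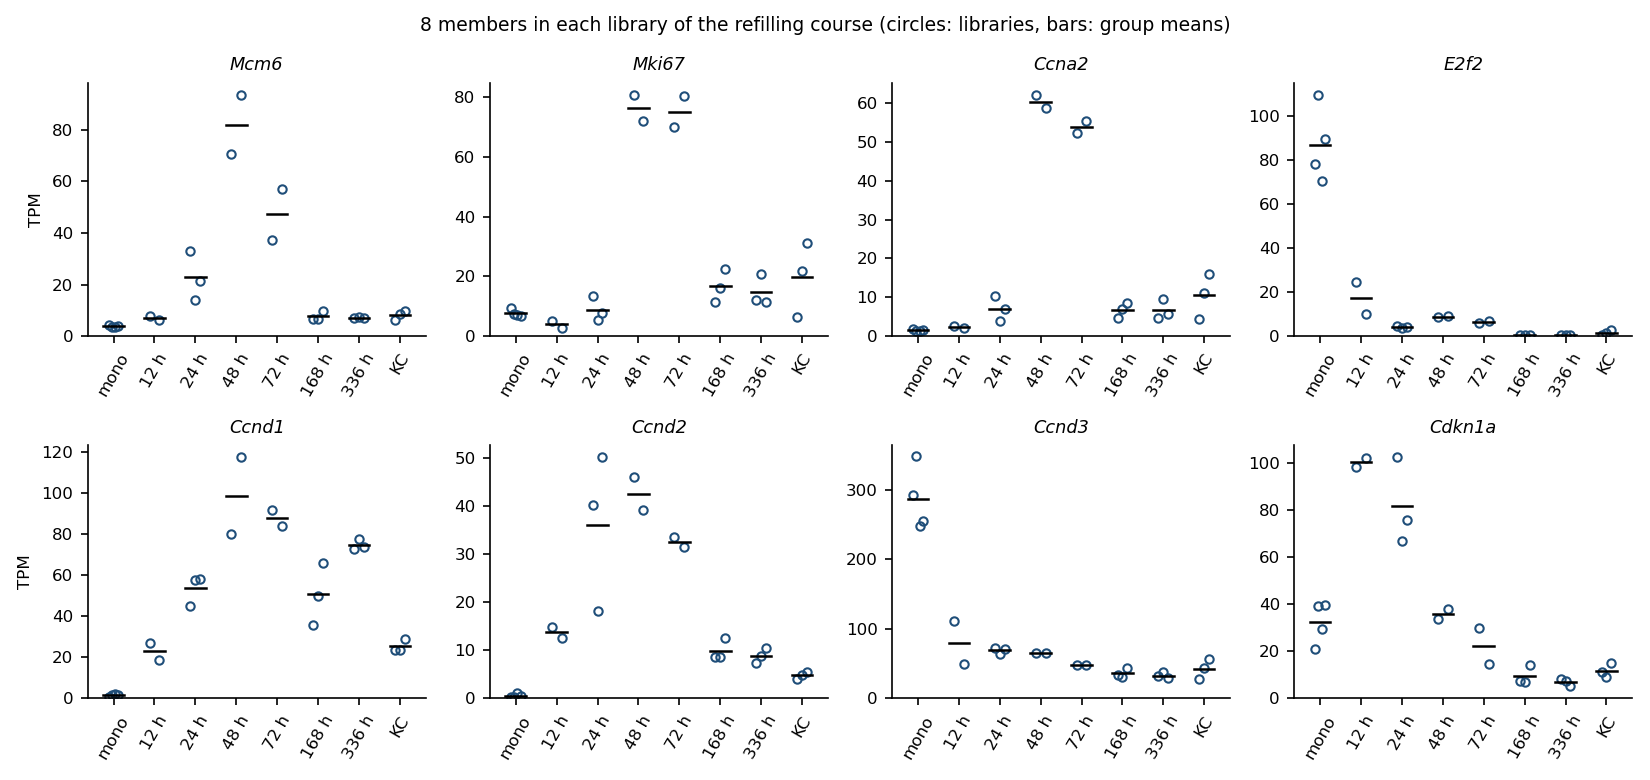
TPM (y axis) of 8 members in every library of the refilling experiment (x axis, groups in order of time); circles are libraries and bars are group means. Ccnd1 and Ccnd2 are already raised at 12 h, Mcm6, Mki67 and Ccna2 are highest at 48 h or 72 h, and E2f2 and Ccnd3 are highest in monocytes.

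At 24 h, 26 of 48 tested members were higher than in monocytes and 3 lower, beside 17.7% and 15.8% of all genes. The 26 were 12 of 21 mitotic genes, 10 of 17 replication genes, 2 D-type cyclins, 1 S-phase gene and Cdkn1a. Mcm5 was at 2.94 to 5.07 TPM in monocytes, 5.67 and 4.41 TPM at 12 h and 30.5, 12.7 and 21.0 TPM at 24 h. Top2a was at 0.633 to 1.68 TPM in monocytes and at 17.7, 7.05 and 13.7 TPM at 24 h (log2 difference 2.77 ± 0.42 SE, limma adjusted p = 1.2e-05). The 24 h libraries lay above all monocyte libraries for both genes. At 24 h, replication genes had covered a median 17.7% of the way from their monocyte to their 48 h mean (range 3.77% to 32.8% over 17 genes). The mitotic genes had covered a median 6.65% (1.19% to 11.5% over 21 genes), while Ccnd1 and Ccnd2 had covered between 53.5% and 84.8%. These shares describe group means and were not tested.
Against 12 h, 23 members rose and 1 fell by 24 h, beside 3.42% and 2.74% of all genes. The 23 held 11 mitotic genes, 8 replication genes, 2 S-phase genes and 2 D-type cyclins, and the member that fell was E2f2. This count rested on single libraries: it was 9 members without replicate 2 at 12 h and 13 without replicate 1 at 24 h, with the values for all other left-out libraries reaching up to 32. Replicate 1 at 24 h was the highest of its group for both roles, with 364 TPM of replication and 144 TPM of mitotic transcripts. It also had 243 TPM of the 6 neutrophil and granulocyte precursor markers, against 50.0 and 63.2 TPM in the other two, and the part of such cells in the 24 h values was not tested.

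At 48 h the members moved together. Against monocytes, 44 of 48 tested members were higher and 3 lower, beside 20.6% and 16.8% of all genes. All 21 mitotic and all 17 tested replication genes rose, as did 3 S-phase genes, Ccnd1, Ccnd2 and 1 inhibitor, Cdkn2c, with a median difference of 3.84 over the 48 against 0.09 over all genes. Cdk1 was at 0 to 0.25 TPM in monocytes, 0.709 and 0.207 TPM at 12 h, 1.90 to 6.26 TPM at 24 h, 46.5 and 45.0 TPM at 48 h and 29.0 and 28.9 TPM at 72 h. Its difference at 48 h was 5.41 ± 0.30 SE (limma adjusted p = 6.6e-11). Uhrf1, which keeps DNA methylation on new strands, was at 0 to 0.308 TPM in monocytes and at 38.3 and 50.6 TPM at 48 h (5.26 ± 0.40 SE, limma adjusted p = 2.7e-09).
Between 24 h and 48 h, 42 members rose and 1 fell, beside 3.51% and 0.747% of all genes. The median over 21 mitotic genes was 3.15 and over 17 replication genes 1.95. Tk1, the S-phase thymidine kinase, was at 7.19 to 16.2 TPM at 24 h and at 125 and 145 TPM at 48 h (3.50 ± 0.28 SE, limma adjusted p = 7.7e-07). Ccnb2, a B-type cyclin of mitosis, rose by 3.45 ± 0.47 SE (limma adjusted p = 7.9e-05) and Tpx2, a spindle assembly factor, by 3.34 ± 0.42 SE (limma adjusted p = 5.1e-05). Cdkn1a was the member that fell, by 1.15 on the log2 scale (SE 0.33, limma adjusted p = 0.026). That call was lost without replicate 1 at 24 h (−0.98, adjusted p = 0.084), without replicate 1 at 48 h (−1.07, 0.16) and without replicate 2 at 48 h (−1.24, 0.098), and with no expression filter (adjusted p = 0.052). Ccnd1 and Ccnd2 did not pass the test between 24 h and 48 h: Ccnd2 stood at 18.2 to 50.2 TPM at 24 h and at 46.1 and 39.1 TPM at 48 h, so its groups overlapped.
All 17 replication genes had their highest group mean at 48 h, as had 15 of 21 mitotic genes. The other mitotic genes, 6 in number (Ccnb1, Ccnb2, Cdc20, Plk1, Bub1b and Kif20a), had it at 72 h. Ccnb2 was at 65.6 and 56.5 TPM at 48 h and at 76.6 and 89.9 TPM at 72 h, whereas Mcm6 was at 70.4 and 93.6 TPM and then 37.2 and 57.2 TPM. The ratio of the 72 h to the 48 h mean had a median of 0.716 over the replication genes (17 of 17 lower) and of 0.934 over the mitotic genes (15 of 21 lower). No gene passed the test between these times: limma called 0 of 48 tested members, beside 0.422% of all genes, with 5 members lower at an unadjusted p under 0.05 and 0 called by limma-voom on recovered reads.

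The other genes of the cycle, from lists of genes that are not members, followed at 48 h. Against 24 h, when 3.51% of all genes rose, 41 of 44 tested kinetochore, spindle and cytokinesis genes rose, with Cdca3 at 3.40, Hmmr at 3.26 and Kif15 at 3.13 on the log2 scale. Of the replication fork and origin genes 24 of 35 rose, with Mcm10 at 2.59. Among proliferation transcription factors 4 of 18 rose, among them Foxm1 (2.73), E2f8 (2.22) and Mybl2 (2.02), which drive the mitotic wave or restrain E2F targets. The 9 tested genes of macrophage growth control, which include the CSF1 receptor, held none that passed.

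At 72 h, 44 members were higher and 3 lower than in monocytes, beside 21.4% and 15.7% of all genes. By 168 h, 45 members had fallen from their 72 h level and none had risen, beside 5.79% of all genes that fell. The 45 were all 21 mitotic, all 17 replication, 4 S-phase genes, 1 D-type cyclin and 2 inhibitors. Mcm5 was at 65.9 and 89.4 TPM at 72 h and at 3.82, 3.96 and 5.31 TPM at 168 h (fell by 3.87, SE 0.30, limma adjusted p = 2e-07). Mki67 was at 69.9 and 80.4 TPM at 72 h and at 11.3, 16.2 and 22.4 TPM at 168 h. No library of one time overlapped the other. Ccnd2 was the D-type cyclin that fell. Ccnd1 did not pass, at 91.4 and 83.8 TPM at 72 h, 35.9 to 66.1 TPM at 168 h and 72.6 to 77.3 TPM at 336 h.
Between 168 h and 336 h limma called 0 of 48 tested members, beside 0.0703% of all genes, with 3 at an unadjusted p under 0.05 and 0 called by limma-voom on recovered reads. Both times still differed from monocytes. At 168 h, 20 members were higher and 4 lower than in monocytes (16.2% and 12.8% of all genes). At 336 h the counts were again 20 and 4 (16.0% and 14.8%). The higher members were mostly mitotic (14 of 21 at 168 h, 13 of 21 at 336 h), while 3 and 4 of 17 replication genes were higher. Cdk1 had a difference of 2.50 at 168 h and 2.47 at 336 h, and the 4 lower members at both times were E2f2, Ccnd3, Cdkn1a and Cdkn1b. Tk1 remained at 43.9 to 61.9 TPM at 168 h against 4.62 to 8.85 TPM in monocytes.
Kupffer cells of PBS-treated mice had 31 members higher and 4 lower than monocytes, beside 19.2% and 16.0% of all genes, with 18 of 21 mitotic and 9 of 17 replication genes among the higher. Their libraries differed widely. Mki67 was at 6.46, 21.7 and 31.0 TPM, and the hepatocyte marker sum of the same 3 libraries was 4470, 3670 and 355 TPM. The part of hepatocyte RNA in the spread of Mki67 was not tested. Against these Kupffer cells, RLMs at 336 h had 1 member higher and 4 lower, beside 0.932% and 2.89% of all genes. Ccnd1 was the higher one, at 72.6, 77.3 and 73.7 TPM against 23.6, 23.4 and 29.0 TPM (1.53 ± 0.21 SE, limma adjusted p = 0.0001), and the groups were well apart. Rrm2, Cdkn2c, Cenpa and Mcm7 were the 4 lower members (−1.39, −1.11, −1.06 and −1.02), and each lost its call when single libraries were left out. The count was 22 members without Kupffer cell replicate 1. It was 1 without Kupffer cell replicate 2, without Kupffer cell replicate 3 or without 336 h replicate 1, and 2 without 336 h replicate 3.
The Kupffer marker genes (6 of 6 listed) summed to 1.38 to 2.06 TPM in monocytes, with Clec4f and Marco at 0. They reached 83.1 to 171 TPM at 24 h, 2200 to 2800 TPM at 48 h, 4500 to 5770 TPM at 72 h and 9610 to 10300 TPM at 168 h, beside 13000 to 14200 TPM in Kupffer cells. The Kupffer sum was thus higher at each later time, while the cell cycle sums were high at 48 h and 72 h and low at 168 h. Hepatocyte markers summed to 185 to 197 TPM at 48 h, sinusoidal endothelial markers to 303 to 414 TPM, B-cell markers to 56.9 to 131 TPM and granulocyte precursor markers to 54.1 to 68.1 TPM, against 1.36 to 5.21, 3.98 to 6.08, 10.7 to 19.0 and 11.1 to 50.2 TPM in monocytes. Their part in the 48 h values was not tested.

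**Figure D3:**
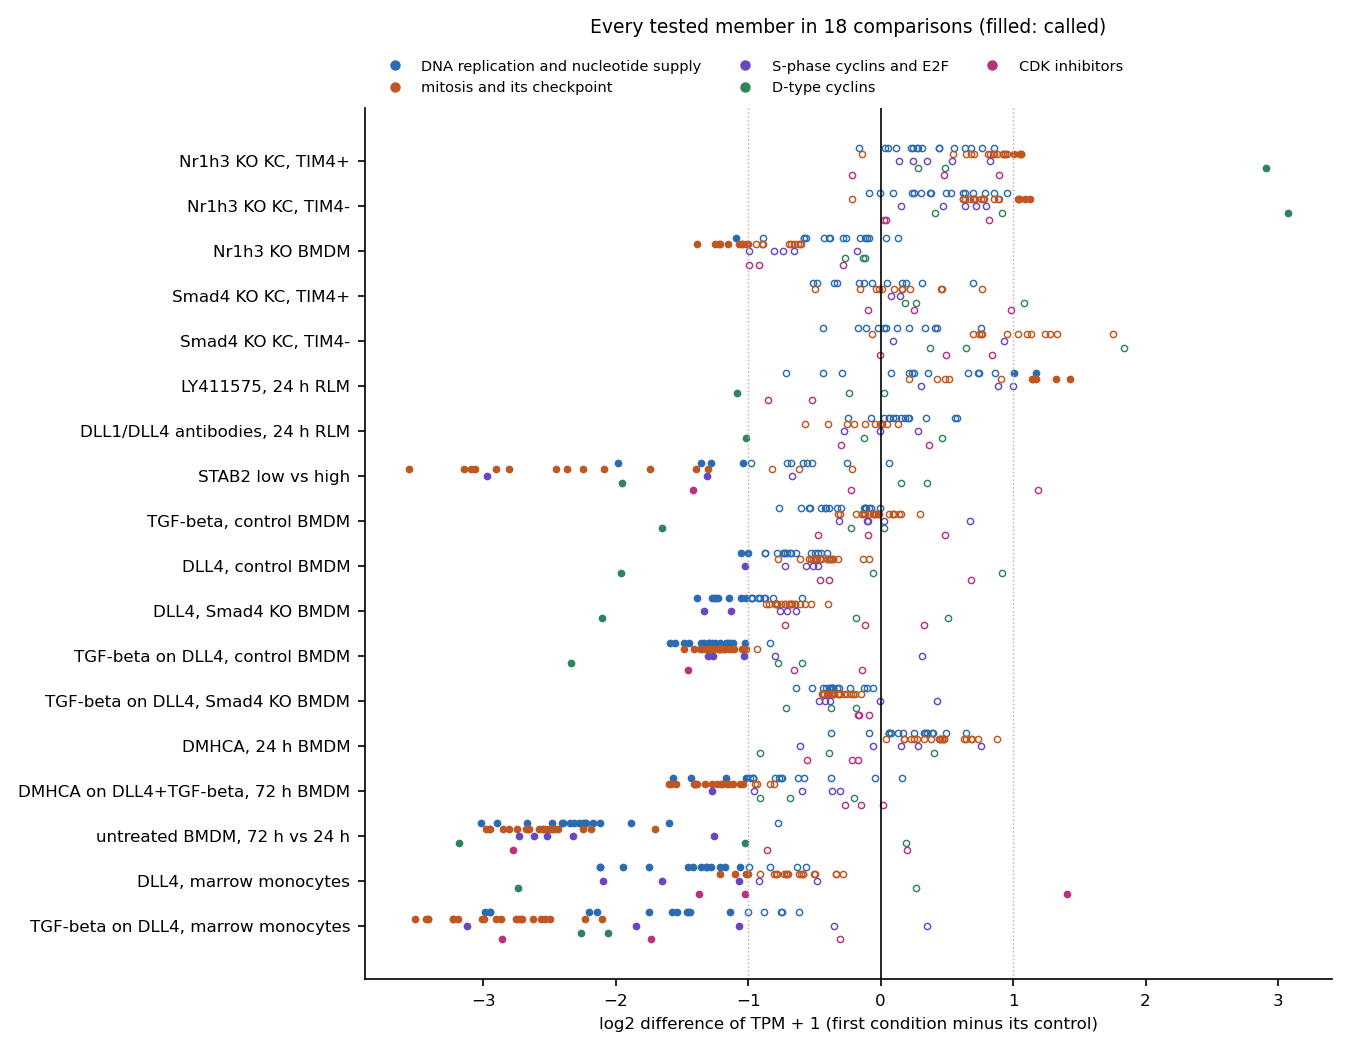
Log2(TPM + 1) difference (x axis) of every tested member in 18 comparisons outside the refilling time course (rows), colored by role; filled points are called and open points are not, and the dotted lines mark 2-fold. Ccnd2 stands alone to the right in both labelled Nr1h3 knockout groups, 13 of 16 tested mitotic genes against 4 of 12 replication genes are filled in the STAB2 comparison, and nearly all members lie to the left for TGF-beta on DLL4 in control BMDMs and marrow monocytes.

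Nr1h3 encodes LXR-alpha, a sterol-activated nuclear receptor that Kupffer cells need. Nr1h3 summed over its exons was at 393 to 409 TPM in control Kupffer cells, 391 to 422 TPM in TIM4+ and 341 to 395 TPM in TIM4- cells labelled knockout. An exon sum cannot check the loss of part of a gene, and the groups are therefore called by their labels. The clearest member in the labelled knockout was Ccnd2, a D-type cyclin. It was at 3.37 and 2.57 TPM in control Kupffer cells, 25.0 and 33.0 TPM in TIM4+ knockout cells and 29.1 and 35.8 TPM in TIM4- knockout cells. The knockout libraries all stood above the controls, by 2.91 ± 0.16 SE (limma adjusted p = 1.4e-05) and 3.08 ± 0.16 SE (limma adjusted p = 5.4e-06). Of 46 tested members 5 rose in TIM4+ cells, beside 1.57% of all genes, and 6 rose in TIM4- cells, beside 2.2% of all genes. The others were mitotic genes. The medians over the tested members were 0.64 and 0.69 against 0.10 and 0.13 over all genes, and 34 and 38 members were higher at an unadjusted p under 0.05, so most differences were smaller than 2-fold. Mki67 was at 13.3 and 10.2 TPM in controls, 24.2 and 26.2 TPM in TIM4+ and 23.3 and 26.9 TPM in TIM4- knockout cells. Its difference in TIM4+ cells was 1.05 ± 0.13 SE (limma adjusted p = 0.00073), close to the 2-fold limit, and the call was lost without control replicate 2 (0.88) and without TIM4+ knockout replicate 2 (1.00). Top2a rose in TIM4- cells by 1.13 ± 0.12 SE (limma adjusted p = 0.00022).
The count for TIM4+ cells was 14 without control replicate 1, 1 without control replicate 2 and 3 without TIM4+ knockout replicate 2. For TIM4- cells it was 12 without control replicate 1, 2 without control replicate 2 and 10 without TIM4- knockout replicate 1. Both comparisons share the 2 control libraries. These controls are TIM4+ cells, so genotype and TIM4 status cannot be told apart in the TIM4- comparison. B-cell and plasma-cell markers (6 of 6 listed) summed to 29.4 to 32 TPM in controls, 65.1 to 74.5 TPM in TIM4+ and 88.7 to 89.4 TPM in TIM4- cells. Kupffer markers summed to 16500 TPM in controls, 7430 to 8060 TPM and 5100 to 5250 TPM, and the part of these shifts in the cell cycle values was not tested.

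**Figure D4:**
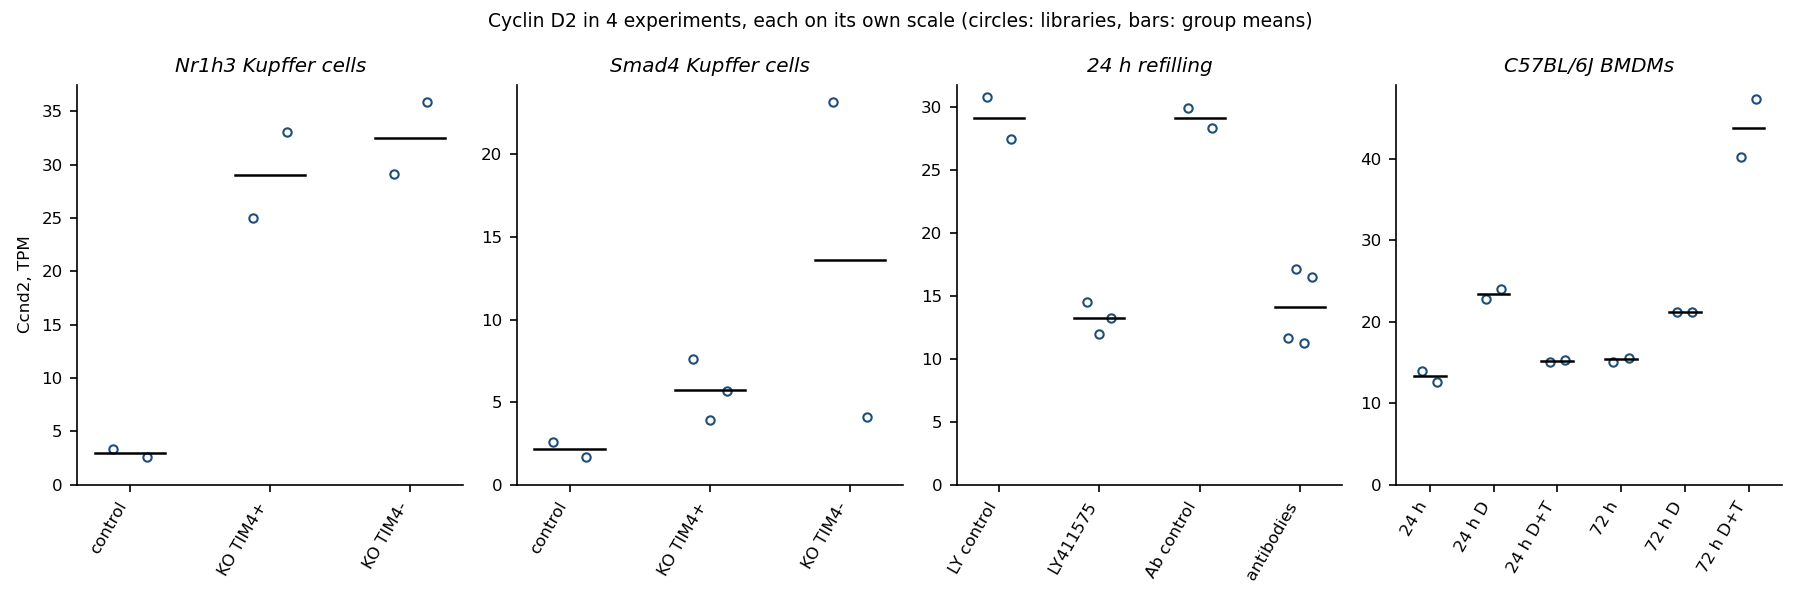
Ccnd2 TPM (y axis, own scale per panel) in every library of 4 experiments (D, DLL4; T, TGF-beta); circles are libraries and bars are group means. It lies above its controls in both labelled Nr1h3 knockout groups and below its controls with LY411575 and with the antibodies.

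In Nr1h3 knockout BMDMs the mitotic genes went the other way. Nr1h3 was at 41.9 to 43.3 TPM in wild-type and 8.05 to 8.81 TPM in knockout BMDMs. Mki67 was at 21.8 and 18.8 TPM in wild-type and at 8.04 and 8.25 TPM in knockout cells (fell by 1.21, SE 0.13, limma adjusted p = 0.0037). Ube2c, a ubiquitin-conjugating enzyme that helps degrade cyclins at anaphase, was at 19.2 and 16.9 TPM and then 6.28 and 6.31 TPM (fell by 1.39, SE 0.12, limma adjusted p = 0.0014). In total 11 of 46 tested members fell, beside 0.388% of all genes, and 10 of the 11 were among the 19 tested mitotic genes. Of 16 tested replication genes 1 was called, Rrm2, a subunit of ribonucleotide reductase (−1.09 ± 0.15 SE, limma adjusted p = 0.010). Mcm6 and Pcna were not called: Mcm6 was at 69.4 and 58.4 TPM in wild-type and at 58.5 and 58.8 TPM in knockout cells, and Pcna, the sliding clamp, at 203 and 201 TPM and then 218 and 224 TPM. Cdkn1a was at 215 and 232 TPM in wild-type and at 116 and 107 TPM in knockout cells. The count was 3 without wild-type replicate 1, 5 without knockout replicate 1, and 6 without wild-type replicate 2 or without knockout replicate 2. The fall of Mki67 lost its call without wild-type replicate 1 (−1.11, adjusted p = 0.054). Macrophage markers summed to 25900 to 27300 TPM in wild-type and to 23000 to 23400 TPM in knockout BMDMs, and their part was not tested.
Control Kupffer cells and wild-type BMDMs of this table differed in 30 members: 3 were higher and 27 lower in Kupffer cells, beside 20.6% and 15.9% of all genes. The lower ones included 15 of 16 tested replication genes, 6 of 19 mitotic genes and Cdkn1a, which fell by 4.79 on the log2 scale (SE 0.16, limma adjusted p = 1.4e-08). Cenpa, the centromeric histone, and Cdkn1b were higher in Kupffer cells by 2.14 and 2.11. Culture and tissue of origin cannot be told apart in this comparison.

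In the liver cells sorted by STAB2, a scavenger receptor of sinusoidal endothelium, most tested mitotic genes followed the gate. The 6 sinusoidal endothelial markers summed to 3580 to 3970 TPM in the low, 8080 to 9480 TPM in the intermediate and 9140 to 10000 TPM in the high gate; Stab2, used for the sort, is among them. Mki67 was at 0.847 and 1.35 TPM in the low, 7.93 and 6.94 TPM in the intermediate and 18 and 15.7 TPM in the high gate. Top2a was at 1.87 and 1.81 TPM, 11.4 and 9.33 TPM, and 22.5 and 22.9 TPM. The 3 gates did not overlap for either gene. Low against high, 21 of 37 tested members fell and none rose, beside 5.54% of all genes that fell. These were 13 of 16 tested mitotic genes but 4 of 12 replication genes, with Mki67 at a log2 difference of −3.09 ± 0.22 SE (limma adjusted p = 0.00024) and Top2a at −3.06 ± 0.18 SE (limma adjusted p = 0.00011). Mcm6 was not called, at 27.1 and 27.1 TPM, 20.0 and 20.3 TPM, and 25.8 and 25.9 TPM. It was the only tested replication gene above 0 (0.065). The others not called were lower by less than 2-fold, among them Tk1 (−0.978), Mcm2 (−0.706), Mcm7 (−0.673), Mcm3 (−0.559) and Pcna (−0.255). The replication genes under the filter (Cdc6, Cdc45, Cdt1, Hells and Tyms) were not tested. They too lay lower in the low than in the high gate without overlap, as did the untested mitotic genes (Ccnb1, Plk1, Bub1, Cenpe and Cenpf). Of the called genes, Mki67, Top2a, Cdk1, Ube2c, Birc5, Aurka, Aurkb, Bub1b, Kif11, Tpx2, Nusap1, Prc1, Rrm2, Gins2 and Uhrf1 were under 4 TPM in both low-gate libraries. They thus passed the filter only through the other gates, where they are high. Cenpa and Kif20a, mitotic genes at 4 TPM or more in both low-gate libraries, were not called. The split in these counts therefore cannot be told apart from the level in the low gate and the filter.
Of the D-type cyclins Ccnd1 was lower in the low than in the high gate (−1.95), and Ccnd2 (0.35) and Ccnd3 (0.155) were not called. Ccnd1 was at 43.1 and 53 TPM in the low gate, 153.1 and 152 TPM in the intermediate and 180 and 197 TPM in the high gate, and Ccnd2 was at 199 and 174 TPM, 130.4 and 133 TPM, and 149 and 143 TPM. Intermediate against high, limma called 0 of 37 tested members, beside 0.00946% of all genes, with 17 lower at an unadjusted p under 0.05 and 2 called by limma-voom on recovered reads. Cdkn1a differed between same-gate libraries, at 63.8 and 187 TPM in the intermediate gate and at 53 and 164 TPM in the high gate. The titles carry the same pair of numbers in every gate. Replicate 2 was the higher library in each gate, and the low gate held more Cdkn1a than the high gate within both numbers. Low against high, Cdkn1a was not called (1.19 ± 0.68 SE, limma adjusted p = 0.24), but it passed with the number as a replicate block (1.19 ± 0.15 SE, limma adjusted p = 0.0023), which gave 22 called members in place of 21. Macrophage markers summed to 137 to 141 TPM in the low and 329 to 362 TPM in the high gate, Kupffer markers to 53 to 67.5 TPM and 236 to 241 TPM, and monocyte markers to 178 to 274 TPM and 6.59 to 23.0 TPM. Whether these cells carry part of the mitotic transcripts was not tested.

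Smad4 encodes the shared transducer of TGF-beta and BMP signals. In Kupffer cells Smad4 was at 33.4 to 35.7 TPM in controls, 13.7 to 21.5 TPM in TIM4+ and 15.1 to 19.6 TPM in TIM4- knockout cells. Mki67 was at 7.57 and 11.2 TPM in controls, 18.4, 6.76 and 10.2 TPM in TIM4+ knockout cells and 42.4 and 14.2 TPM in TIM4- knockout cells. Ccnd2 was at 2.61 and 1.67 TPM, 7.61, 3.91 and 5.65 TPM, and 23.2 and 4.11 TPM. Every knockout library thus had more Ccnd2 than both controls, but the knockout libraries differed among themselves several fold. Limma called 0 of 33 tested members in TIM4+ cells (0.965% of all genes called; 2 members at an unadjusted p under 0.05; 0 by limma-voom on recovered reads). In TIM4- cells it also called 0 (1.62% of all genes; 8 members at an unadjusted p under 0.05; 0 by limma-voom). The median over the tested mitotic genes in TIM4- cells was 1.04. The controls here are also TIM4+ cells, so genotype and TIM4 status cannot be told apart for the TIM4- cells. TIM4- replicate 1 held 331 TPM of mitotic transcripts against 140.0 TPM in replicate 2, and without replicate 2 limma called 1 member. TIM4+ replicate 1, whose title carries the same number as TIM4- replicate 1, was also the highest of its group for this sum, above the 73.0 and 115 TPM of the other TIM4+ libraries, and for Ccnd2.

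Smad4 control BMDMs expressed the members at high levels, and the pair DLL4 plus TGF-beta lowered nearly all of them. DLL4 is a ligand of the Notch receptors, TGF-beta a cytokine that signals through SMAD factors, and DAPT an inhibitor of gamma-secretase, which Notch needs to signal. Smad4 was at 20.4 to 26.5 TPM in control and 8.52 to 11.3 TPM in knockout BMDMs. In control cells Mki67 was at 152 and 160.1 TPM untreated, 174 and 158 TPM with TGF-beta, 114 and 109 TPM with DLL4, 181 and 150.9 TPM with DLL4 plus DAPT, and 44.6 and 45.3 TPM with DLL4 plus TGF-beta. Mcm5 was at 118 and 125, 121 and 68.1, 76.5 and 68.9, 114 and 112, and 27.0 and 21.4 TPM in the same order. Libraries with both ligands stood below every other control library for both genes.
TGF-beta alone gave 1 lower member of 49, beside 1.56% of all genes: Ccnd1, at 208 and 266 TPM untreated and 147 and 37.2 TPM with TGF-beta. That fall of 1.65 rested on TGF-beta replicate 2, without which the value was −0.68 and 0 members were called; without replicate 1 the count was 4. DLL4 alone gave 4 lower members, beside 1.17% of all genes, namely Ccnd1 (−1.96 ± 0.40 SE, limma adjusted p = 0.0014), Uhrf1, Ccne2 and Hells, with 47 of 49 members below 0. The count was 2 without untreated replicate 2 and 1 without DLL4 replicate 2. DAPT on top of DLL4 went the other way: Ccnd1 was at 65.0 and 54.7 TPM with DLL4 and at 172 and 163 TPM with DLL4 plus DAPT. It rose by 1.47 ± 0.40 SE (limma adjusted p = 0.014) with Ccne2, beside 0.341% of all genes that rose, and Ccnd2 fell, beside 1.75% of all genes that fell. No member was called without DLL4 replicate 2 or without DLL4 plus DAPT replicate 2, Ccnd2 lost its call without any 1 of the 4 libraries (adjusted p = 0.055 to 0.068), and Ccnd1 also without DLL4 plus DAPT replicate 1 (1.43, 0.07).
TGF-beta added to DLL4 lowered 41 of 49 members and raised none, beside 4.04% of all genes that fell, with a median of −1.22 over the members and −0.09 over all genes. The 41 were 20 mitotic, 16 replication and 3 S-phase genes, Ccnd1 and Cdkn2c. Ccnd1 was at 65.0 and 54.7 TPM with DLL4 and 13.6 and 8.87 TPM with both (fell by 2.34, SE 0.40, limma adjusted p = 0.00027), and Mcm5 fell by 1.56 (SE 0.17, limma adjusted p = 5.7e-06). Among the lists of genes that are not members, 32 of 44 tested kinetochore and spindle genes and 19 of 36 replication fork genes fell, and none rose. Granulocyte precursor markers (6 of 6 listed) summed to 2670 to 2840 TPM untreated and 4960 to 5210 TPM with both ligands, and their part was not tested.

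In Smad4 knockout BMDMs no member passed the test when TGF-beta was added to DLL4. Mki67 was at 138 and 127 TPM untreated, 121 and 132 TPM with TGF-beta, 83.5 and 80.3 TPM with DLL4, 141 and 142 TPM with DLL4 plus DAPT and 62.5 and 58.3 TPM with DLL4 plus TGF-beta. Mcm5 was at 84.4 and 80.6, 67.2 and 68.0, 37.5 and 36.2, 69.6 and 66.9, and 25.0 and 25.9 TPM. The groups with DLL4 alone and with both ligands did not overlap for these genes, but limma called 0 of 49 members between them (0.799% of all genes), with 35 lower at an unadjusted p under 0.05 and 0 called by limma-voom on recovered reads. The difference of the responses was tested as an interaction. TGF-beta on DLL4 lowered 11 members less in knockout than in control cells, beside 1.39% of all genes with a higher interaction, with all 49 members above 0. The interaction compares responses and not end levels. With DLL4 alone Mcm5 stood lower in knockout than in control cells. With both ligands the knockout libraries, at 25.0 and 25.9 TPM of Mcm5, lay within the range of the control libraries. The 11 included Birc5, a passenger complex protein (1.29 ± 0.11 SE, limma adjusted p = 5.9e-06), Pcna (1.23) and Tk1 (1.14). Cdkn2c was at 68.4 and 63.3 TPM with DLL4 and 25.1 and 21.8 TPM with both in control cells, and at 45.1 and 48.1 TPM and then 41.5 and 41.4 TPM in knockout cells (1.29). The count was 5 without control DLL4 replicate 1 and 4 without control DLL4 plus TGF-beta replicate 2, without which Tk1 was at 0.99.
DLL4 alone lowered 11 members in knockout cells, beside 1.18% of all genes, 8 of them replication genes, with Pcna at −1.27 ± 0.13 SE (limma adjusted p = 5.1e-06). Its interaction with genotype gave 0 called members by limma, beside 0.0% of all genes, with 23 at an unadjusted p under 0.05 and 0 called by limma-voom, so a difference between the genotypes in the DLL4 response did not pass the test. DAPT raised 3 members over DLL4, beside 0.399% of all genes, namely Ccnd1, Uhrf1 and Mcm6; Ccnd1 (1.40) lost its call without any 1 of the 4 libraries (adjusted p = 0.063 to 0.092). TGF-beta alone gave 0 called members in knockout cells (0.545% of all genes; 3 members at an unadjusted p under 0.05; 0 by limma-voom), and its interaction with genotype gave 0 by limma (1.2% of all genes; 4 members at an unadjusted p under 0.05; 0 by limma-voom), or 1 without control TGF-beta replicate 1. Untreated knockout and control cells differed in 1 member, beside 0.38% of all genes that were lower: Ccnd1, at 94.6 and 107 TPM against 208 and 266 TPM (fell by 1.22, SE 0.40, limma adjusted p = 0.04). None was called without any 1 of the 4 libraries, where Ccnd1 ranged from −1.40 to −1.04.

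**Figure D5:**
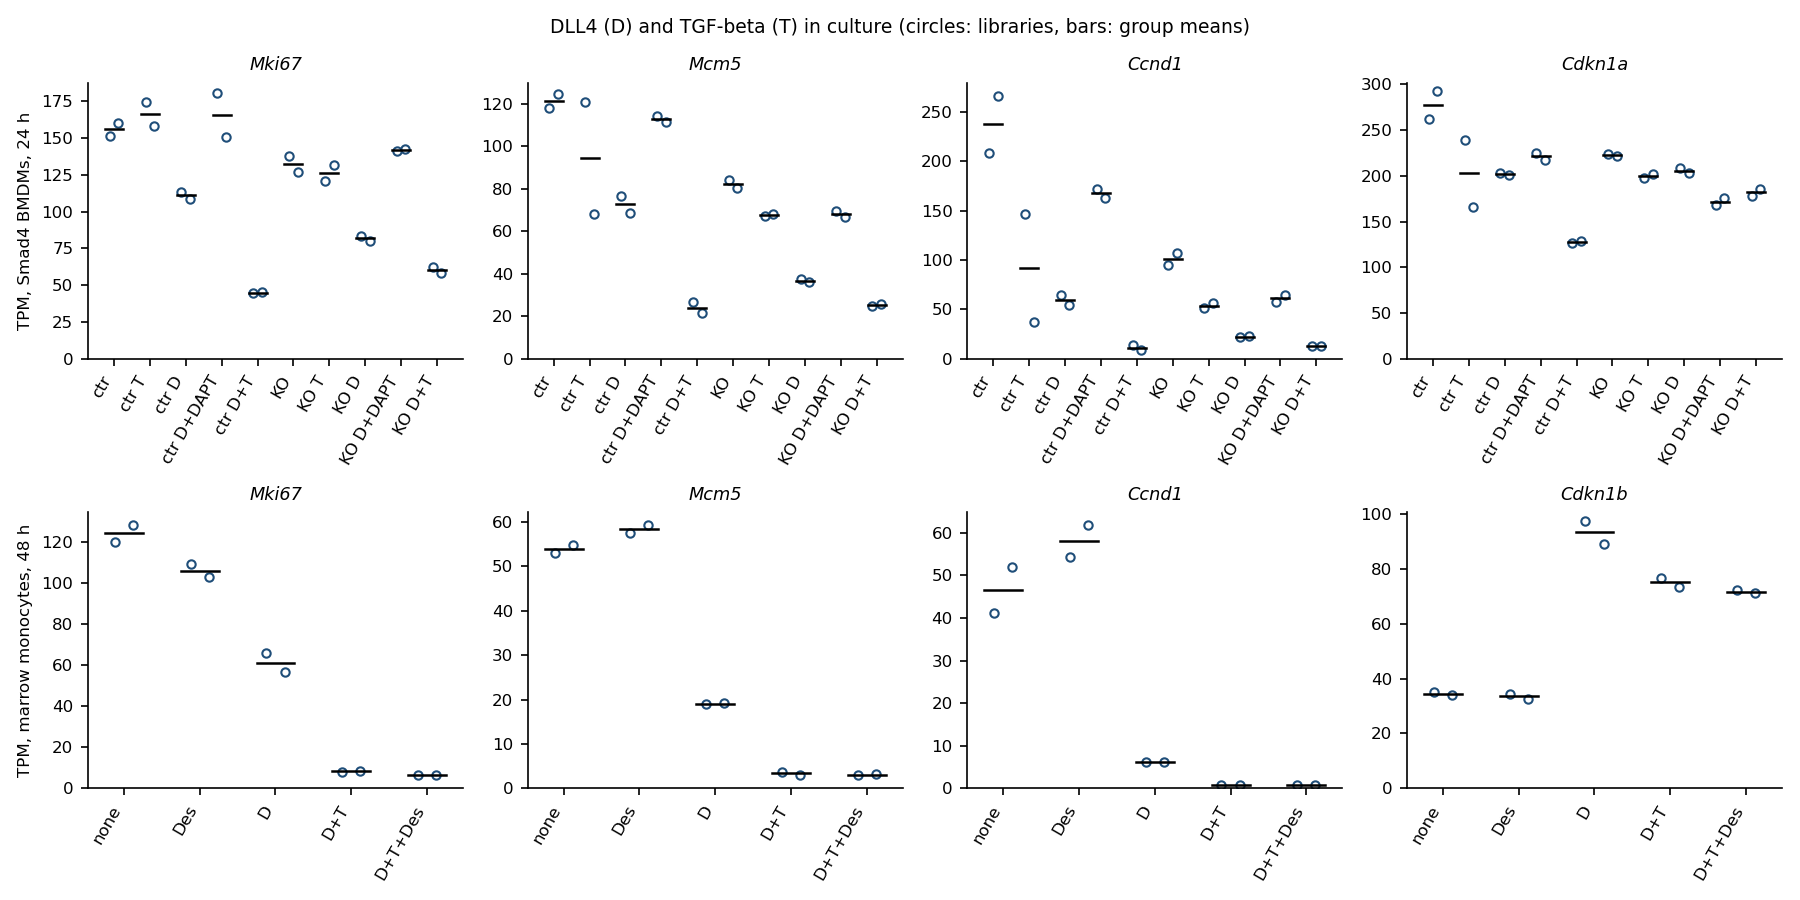
TPM (y axis, own scale per panel) of Mki67, Mcm5, Ccnd1 and a CDK inhibitor in every library of the Smad4 BMDMs (top, control and knockout by agent) and the marrow monocytes (bottom); circles are libraries and bars are group means. D is DLL4, T TGF-beta and Des desmosterol; Mki67 and Mcm5 are lowest with DLL4 plus TGF-beta among the control BMDM groups, and low with that pair, with or without desmosterol, in marrow monocytes.

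In C57BL/6J BMDMs at 24 h, Ccnd1 was the member most lowered by DLL4 plus TGF-beta. Mki67 was at 148 and 136 TPM untreated, 128 and 118 TPM with DLL4, 78.6 and 73.4 TPM with DLL4 plus TGF-beta and 55.6 and 45.4 TPM with DLL4, TGF-beta and DMHCA. DMHCA is a synthetic sterol that activates LXR receptors. Ccnd1 was at 368 and 338 TPM untreated, 177 and 183 TPM with DLL4, 56.5 and 57.7 TPM with DLL4 plus TGF-beta and 99.1 and 100.1 TPM with all 3 agents. Groups were apart for both genes. Against untreated cells DLL4 gave 0 called of 49 members by limma (2.75% of all genes; 29 members at an unadjusted p under 0.05; 0 by limma-voom), or 1 without untreated replicate 2. TGF-beta added to DLL4 lowered 2 members, beside 1.49% of all genes: Ccnd1 (fell by 1.64, SE 0.11, limma adjusted p = 7e-08) and Uhrf1 (−1.02), which was under 2-fold without DLL4 replicate 1 (−0.96) or DLL4 plus TGF-beta replicate 2 (−0.98), leaving 1 member. A further 45 members were lower at an unadjusted p under 0.05 and did not pass the call.
DMHCA alone gave 0 called members by limma, beside 5.43% of all genes, with 36 at an unadjusted p under 0.05, 30 of them higher, and 1 called by limma-voom. All 21 mitotic genes were above 0, with a median of 0.45. Ube2c was at 122 and 133 TPM untreated and 241 and 229 TPM with DMHCA, and Ccnd1 at 471 and 461 TPM with DMHCA, above both untreated libraries. Ccnd2 was at 14.0 and 12.7 TPM untreated and at 7.02 and 6.22 TPM with DMHCA. DMHCA added to DLL4 plus TGF-beta at 24 h also gave 0 by limma (1.23% of all genes; 35 members at an unadjusted p under 0.05, 32 lower; 0 by limma-voom). In the DMHCA-only libraries granulocyte precursor markers (6 of 6 listed) summed to 156 to 165 TPM against 1260 to 1500 TPM untreated, and macrophage markers to 12500 to 13100 TPM against 25400 to 28200 TPM; their part was not tested.

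By 72 h most members of untreated BMDMs had fallen, and DMHCA added to DLL4 plus TGF-beta lowered 22 of 49 members at that time. Mki67 was at 148 and 136 TPM at 24 h and 16.6 and 18.2 TPM at 72 h. In all, 45 of 49 members fell from 24 h to 72 h and none rose, beside 7.33% of all genes that fell, with Ccnd1 at −3.18 ± 0.11 SE (limma adjusted p = 4e-11) and Mki67 at −2.96. The 24 h cells had 4 days and the 72 h cells 6 days of culture in all, so the medium, age and time cannot be told apart. Of the CDK inhibitor and p53 genes that are not members, 4 of 16 tested rose over this span, beside 6.44% of all genes that rose, led by Cdkn1c, which encodes p57 (3.71 on the log2 scale), and 1, Cdkn2d, fell.
At 72 h DLL4 gave 0 called members by limma against untreated cells (1.73% of all genes; 13 members at an unadjusted p under 0.05; 0 by limma-voom). TGF-beta added to DLL4 raised Ccnd2, from 21.2 and 21.3 to 40.3 and 47.4 TPM (1.01 ± 0.09 SE, limma adjusted p = 1.2e-06), and lowered Pcna (−1.01 ± 0.07 SE, limma adjusted p = 2.3e-07), beside 4.02% and 1.62% of all genes. Both lay at the 2-fold limit, and 1 of the 2 remained without DLL4 replicate 1, without DLL4 plus TGF-beta replicate 1 or without DLL4 plus TGF-beta replicate 2. DMHCA added to both ligands lowered 22 members and raised none, beside 4.57% of all genes that fell. Mki67 was at 15.6 and 19.5 TPM with DLL4 plus TGF-beta and at 4.72 and 5.58 TPM with DMHCA as well (fell by 1.59, SE 0.11, limma adjusted p = 2.8e-07), and Top2a fell by 1.59 (SE 0.10, limma adjusted p = 9e-08). The 22 were 17 of 21 mitotic genes, 4 of 17 replication genes and 1 S-phase gene; Mcm6, not among them, was at 24.6 and 26.0 TPM and then 19.6 and 18.9 TPM. The count was 14 without DLL4 plus TGF-beta plus DMHCA replicate 1. Granulocyte precursor markers summed to 4760 to 4840 TPM with both ligands and to 1410 TPM with DMHCA as well, and their part was not tested.

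Ccnd2 was lower in treated than in control 24 h RLMs in both experiments aimed at Notch signaling. LY411575 is, like DAPT, an inhibitor of gamma-secretase, and the antibodies were raised to DLL1 and DLL4. Ccnd2 was at 30.8 and 27.5 TPM in the LY411575 controls and 14.5, 12.0 and 13.3 TPM with LY411575 (−1.08 ± 0.17 SE, limma adjusted p = 0.00072). With the antibodies it was at 11.7, 17.1, 11.2 and 16.5 TPM against 29.9 and 28.3 TPM (−1.02 ± 0.16 SE, limma adjusted p = 0.0022). Treated and control libraries did not overlap in either experiment. The antibody value lay at the 2-fold limit and was under it without antibody replicate 1 (−0.94), antibody replicate 3 (−0.92) or control replicate 1 (−0.98).
Of the 32 tested members LY411575 raised 7, 5 of them among 10 mitotic genes, and lowered Ccnd2, beside 3.73% and 2.65% of all genes. Further members passed a limma adjusted p below 0.05 but not the 2-fold limit. Of these Cdkn1a (−0.85) and Cdkn1b (−0.518) were lower. E2f2 (1.0, just under the limit), Cenpa (0.912), Cdt1 (0.865), Mcm6 (0.745), Mcm2 (0.738) and Pcna (0.657) were higher. Kif11, a spindle motor, was at 1.19 and 1.29 TPM in controls and 4.72, 5.44 and 4.93 TPM with LY411575 (1.43 ± 0.34 SE, limma adjusted p = 0.0087). Its mean was 2.55 TPM with the antibodies and 3.03 TPM in their controls. Kif11 thus passed the 4 TPM filter through the LY411575 libraries, where it is high, and it counts among the 5. Bub1b, a checkpoint kinase, rose by 1.32 ± 0.24 SE (limma adjusted p = 0.0018). The count of 8 was 3 without LY411575 control replicate 1, where Kif11 was at 1.39 with adjusted p = 0.059. With the antibodies no member was called higher, and Ccnd2 was the 1 called lower, beside 1.4% of all genes that fell. Mcm6 (0.558), Ccnd1 (0.46) and Cdkn1a (0.366) were higher by less than 2-fold, at a limma adjusted p below 0.05. The count of called members was 0 without antibody replicate 1 or 3. Mki67 was at 6.02 and 12.9 TPM in the antibody controls and 6.73 to 8.32 TPM in the 4 treated libraries, inside the control range, whereas it was at 4.70 and 3.75 TPM and then 10.2 to 10.7 TPM with LY411575.
The responses were compared with each other: LY411575 minus antibody was higher for 5 members and lower for 1, beside 3.55% and 1.83% of all genes. Cdkn1a was the lower one, at 255 and 254 TPM in LY411575 controls, 138 to 144 TPM with LY411575, 51.9 and 53.9 TPM in antibody controls and 64.4 to 77.3 TPM with the antibodies (−1.22 ± 0.11 SE, limma adjusted p = 4.4e-05). For Mki67 the difference was 1.41 ± 0.32 SE (limma adjusted p = 0.015), and 0.92 without antibody control replicate 2. The count was 2 without LY411575 control replicate 1, without LY411575 control replicate 2 or without antibody control replicate 2, 3 without LY411575 replicate 3 and 10 without antibody control replicate 1. The antibody controls themselves differed, with 53.1 and 128 TPM of mitotic transcripts. Macrophage markers summed to 7990 to 8090 TPM in LY411575 controls and 15900 to 16800 TPM with LY411575, Kupffer markers to 114 TPM at most and to 12.9 to 17.4 TPM, and hepatocyte markers to 312 to 315 TPM and 615 to 635 TPM. Their part was not tested.

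In cultured marrow monocytes DLL4 lowered mainly the replication genes, and TGF-beta added to it lowered the mitotic genes. Mki67 was at 120.4 and 129 TPM untreated, 65.8 and 56.7 TPM with DLL4, 109 and 103 TPM with desmosterol, 8.08 and 8.55 TPM with DLL4 plus TGF-beta and 6.35 and 6.52 TPM with all 3. Mcm5 was at 53 and 54.8, 18.9 and 19.2, 57.6 and 59.3, 3.77 and 3.00, and 2.90 and 3.18 TPM in the same order. DLL4 groups stood below the untreated and desmosterol libraries, and groups with TGF-beta far below those.
DLL4 lowered 23 of 48 tested members and raised 1, beside 10.4% and 9.1% of all genes. The replication genes took the larger part, 13 of 17 against 4 of 21 mitotic genes. Ccnd1 was at 41.1 and 52.0 TPM untreated and 6.10 and 6.07 TPM with DLL4 (fell by 2.74, SE 0.11, limma adjusted p = 1.7e-08), and Mcm6 and Pcna both fell by 2.12. Cdkn1b was the member raised, from 35.1 and 34.0 TPM to 97.4 and 89.3 TPM (1.41 ± 0.05 SE, limma adjusted p = 9.1e-09). Cdkn1a went the other way, from 156 and 156 TPM to 61.8 and 57.8 TPM. Of the pathway genes that are not members, Cdk6, a partner of the D-type cyclins, fell by 2.97.
TGF-beta added to DLL4 lowered 40 members and raised none, beside 6.43% of all genes that fell, and here the mitotic genes led. All 21 fell with a median of −2.86, and 12 of 17 replication genes fell, with a median of −1.46 over the 17. Top2a was at 84.5 and 72.2 TPM with DLL4 and 6.72 and 5.94 TPM with both, and Ccnb2 fell by 3.51 (SE 0.09, limma adjusted p = 3.3e-09). E2f2 did not join, at 19.8 and 19.7 TPM with DLL4 and 24.9 and 26.0 TPM with both. Foxm1, a factor of the mitotic wave and not a member, fell by 3.10, and 41 of 45 kinetochore and spindle genes fell with it. Macrophage markers (6 of 6 listed) summed to 25100 to 25500 TPM untreated, 7810 to 8050 TPM with DLL4 and 5060 to 5090 TPM with both; dendritic cell markers summed to 4.50 to 5.70, 48.0 to 49.1 and 37.4 to 41.5 TPM. Their part was not tested.
Desmosterol, a cholesterol precursor that also binds LXR receptors, gave 0 called of 48 members by limma against untreated monocytes (0.244% of all genes; 8 members at an unadjusted p under 0.05; 0 by limma-voom). Added to both ligands it again gave 0 (0.205% of all genes; 11 members at an unadjusted p under 0.05, all lower; 0 by limma-voom). Desmosterol at 48 h in marrow monocytes and DMHCA at 24 h and 72 h in BMDMs differ in cell, time and table. Their values stand side by side here and were not compared.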

How the data were processed

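RNA-seq of poly(A) RNA was made with dUTP-marked strands, per the labels' protocols. STAR, HOMER and mm10 are named in the submitters' processing notes, with no versions. The values used are TPM computed by the authors from HOMER exon counts per condensed gene, per a file header. Within each library all low TPM values were whole multiples of 1 read (100%, within 0.1 read, up to 20 reads). The recovered reads served only for depth and for limma-voom as an alternative. They totalled 7830287 to 27777000 per library, and the number of libraries, 2 to 4 a group, limits the precision.

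In each of the 8 tables log2(TPM + 1) was fitted by limma 3.58.1 in R 4.3.3, with a mean per group and a variance trend, over genes at 4 TPM or more in 2 or more libraries. Adjusted p-values cover all genes of the table. There were 44 comparisons and 4 interactions. The script was tested on simulated data. In each comparison up to 4 called members per direction, those with the largest differences, and up to 3 genes per pathway list were open to naming, and other members are given by values. The members and lists were chosen with earlier results of these data known. For 17 members the tables list another isoform in some table, so levels were not compared across tables, and genes sharing reads with a copy are uncertain. Of 69 replicate pairs none was identical (chi-square per degree of freedom 1.56 to 53.41).

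Groups follow titles where labels disagree: the LY411575 and antibody controls carry the agent in another label, and 72 h BMDMs carry a 24 h agent label. The labels do not say whether shared replicate numbers mark a shared animal, so the fits carry no block. Alternatives were leaving out each library, a replicate block, limma-voom, quantile normalization, no filter on low genes and a pseudocount of 0.25. Figures used matplotlib 3.10.9. Some results are not reported here.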

Additional observations from a re-analysis of the deposited data

Results flagged for a closer look

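In the 4 antibody-treated libraries, 4 members had a library far from the other 3: Bub1b with a low value of 4.02 TPM, Cdkn1b with a low value of 18.3 TPM, Mcm6 with a high value of 36.1 TPM and Rrm2 with a high value of 5.41 TPM. Such gaps were looked for in 49 sets of 4 libraries, and chance gives about 1 in 20.

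The response to TGF-beta on top of DLL4 differed between Smad4 knockout and control BMDMs, by limma's interaction term, for 11 members. All were lowered less in the knockout. This compares responses and not end levels, because some members, such as Mcm5, already stood lower in knockout than in control cells with DLL4 alone. On the log2 scale the differences were 1.0 for Mcm2 and for Prc1, 1.01 for Cdk1, 1.04 for Mcm5, 1.05 for Uhrf1, 1.06 for Ube2c, 1.08 for Cdc45, 1.14 for Tk1, 1.23 for Pcna, and 1.29 for Cdkn2c and for Birc5.

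The response of 24 h RLMs to LY411575 differed from that to the antibodies, by the same kind of term, for 6 members: Cdkn1a at −1.22, Top2a at 1.22, E2f2 at 1.28, Bub1b at 1.33, Mki67 at 1.41 and Cenpa at 1.48. The agents were given to mice labelled with different sexes, and agent and sex cannot be told apart.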

How the results depend on the processing

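No difference of a named member changed sign: of 1506 alternative values for named differences, 1396 kept their side of the threshold, 110 lost it and 0 reversed. The named members were picked as the called ones with the largest differences, so a change of sign was unlikely from the outset and says little about the other members. Counts of called members stayed within 1.5 times in 206 of 225 alternatives that kept all libraries. Quantile normalization gave 18 members at 24 h and 13 at 336 h against monocytes, 4 in Nr1h3 knockout BMDMs, 1 and 0 for TGF-beta on DLL4 in C57BL/6J BMDMs at 24 h and 72 h, 0 for the antibodies and 6 for the interaction of Smad4 genotype with TGF-beta on DLL4. Limma-voom gave 13 and 11 in TIM4+ and TIM4- Nr1h3 knockout Kupffer cells, 17 in Nr1h3 knockout BMDMs, 2 for STAB2 intermediate against high and 1 for DMHCA at 24 h. A pseudocount of 0.25 gave 12 and 10 in the TIM4+ and TIM4- cells. With no expression filter, 0 members were called between untreated Smad4 knockout and control BMDMs and 3 for LY411575 minus antibody. For these the cause was not tested.

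Leaving out 1 library each gave 9 to 32 members for 24 h against 12 h, 1 to 22 for 336 h against Kupffer cells, 1 to 14 and 2 to 12 in TIM4+ and TIM4- Nr1h3 knockout Kupffer cells, 3 to 6 in Nr1h3 knockout BMDMs and 0 to 1 in TIM4- Smad4 knockout Kupffer cells. In control BMDMs it gave 0 to 4 for TGF-beta, 1 to 4 for DLL4 and 0 to 3 for DAPT, and 0 to 0 for untreated knockout against control. In C57BL/6J BMDMs it gave 0 to 1 for DLL4 at 24 h, 1 to 3 and 1 to 2 for TGF-beta on DLL4 at 24 h and 72 h, and 14 to 27 for DMHCA on both at 72 h. It gave 3 to 8 for LY411575, 0 to 2 for the antibodies, 2 to 10 for their difference, 0 to 1 for the interaction of genotype with TGF-beta and 4 to 16 for that with TGF-beta on DLL4.

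The labels do not say what shared replicate numbers stand for. In the STAB2 table the deviations of all 6 same-numbered pairs were positively correlated (0.057 to 0.137, 4 of 6 over 0.1), and the block there gave 22 members low against high, Cdkn1a being the added one, and 0 intermediate against high. In the other tables with shared numbers the correlations ran from −0.261 to 0.339, few of them over 0.1. In the Smad4 Kupffer cell table no paired analysis was possible because the groups share only 1 number. A replicate block gave 5 members for LY411575, 0 for the antibodies and 3 for their difference, and changed no other count by over 1.5 times. For the antibody libraries the block followed the title numbers. Most of these differ from the replicate numbers in the deposited column names, so the block may not join matching libraries there. Named differences lost their call under the block in 5 of 79 cases. Depth and level limit what could be tested: 12 members in the STAB2 table, 16 in the Smad4 Kupffer cell table and 17 in the LY411575 and antibody table stayed under the expression filter.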

Other observations

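Some genes outside the members that restrain division were lower in 24 h RLMs than in blood monocytes. Of 15 tested CDK inhibitor and p53 target genes, 6 fell and 1 rose, beside 15.8% and 17.7% of all genes. Btg2, an antiproliferative gene, fell by 3.70 on the log2 scale, Cdkn2d, which encodes the inhibitor p19, by 2.59, and Btg1 by 2.32, while Bax, a p53 target that promotes cell death, rose by 1.23. Among genes of macrophage growth control, Maf (3.58) rose at 24 h, and Klf2 and Klf4 fell by 3.70 and 3.05. Between 72 h and 168 h, when the members fell, Klf2 (1.46) and Klf4 (1.34) rose. Myc, a growth factor-induced transcription factor, rose by 2.94 at 24 h. In marrow monocytes DLL4 raised Btg2 (1.93) and Sesn2 (1.67) and lowered Cdkn1c by 2.09.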
